A study of Rattus norvegicus with 55 samples.

Results

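The 6 immature rat kidney arrays described here fall into 2 classes that were split by the signal of a single probe set, X56596_at, which the platform assigns to the MHC class II gene RT1-Bb. They are immature replicates 1 to 6, where replicate 1 is the array titled without a number and the others carry their title number, and they are 6 of 13 immature arrays and of 55 arrays in the series. Replicates 1, 2 and 3 had an X56596_at intensity above 600 and form the high class. Replicates 4, 5 and 6 lay below 600 and form the low class. The arrays were grouped by this measured value, and no treatment, diet, age, sex or strain contrast in the labels separates the classes. Differences between the classes over the 6 arrays are therefore given as descriptions, with no p-value for any probe set. Tests of a probe set were made in the 49 other arrays, and in a contrast of the 6 with the 49.

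Each array was hybridised with total RNA from kidney. Every title names SHR, the spontaneously hypertensive rat, a strain bred for high blood pressure, while the descriptions say Wistar-derived. Both classes share these labels and the immature stage word. The 49 other arrays are 7 immature, 14 young, 14 mature and 14 without a stage word. Nothing in the labels says that arrays came from separate animals, so a p-value here sets a difference against the spread of the arrays alone, and that spread may be technical.

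MHC class II molecules carry peptides to the surface of antigen-presenting cells, where CD4 T cells read them. In the rat they are encoded in the RT1 complex as pairs of chains, RT1-Ba with RT1-Bb for the RT1-B molecule and RT1-Da with RT1-Db1 for the RT1-D molecule. The invariant chain Cd74 accompanies the new pairs, the protease Ctss degrades it, and RT1-DM loads the peptide. In kidney the main carriers of class II are the dendritic cells and macrophages between the tubules.

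The promoters of the 4 chain genes are shown because the probe sets of these genes went different ways between the classes. They are the 250 bases before the RefSeq start in assembly GRCr8, the sequence of the reference strain and not of these rats. RT1-Ba is at chr20:4576807-4577056 on the plus strand, RT1-Bb at chr20:4604119-4604368 on the minus strand, RT1-Da at chr20:4515165-4515414 on the plus strand and RT1-Db1 at chr20:4560163-4560412 on the minus strand. Capitals mark ATTGG or its reverse complement CCAAT, the core of the Y box of class II promoters.
RT1-Ba: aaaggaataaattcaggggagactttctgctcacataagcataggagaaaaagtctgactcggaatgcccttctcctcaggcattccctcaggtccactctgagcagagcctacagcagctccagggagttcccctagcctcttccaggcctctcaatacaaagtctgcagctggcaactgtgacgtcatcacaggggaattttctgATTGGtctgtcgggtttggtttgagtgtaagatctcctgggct
RT1-Bb: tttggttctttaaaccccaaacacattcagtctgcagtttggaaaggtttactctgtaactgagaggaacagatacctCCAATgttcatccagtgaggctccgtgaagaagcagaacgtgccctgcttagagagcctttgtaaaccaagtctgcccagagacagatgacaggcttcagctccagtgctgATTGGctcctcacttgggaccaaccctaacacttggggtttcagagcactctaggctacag
RT1-Da: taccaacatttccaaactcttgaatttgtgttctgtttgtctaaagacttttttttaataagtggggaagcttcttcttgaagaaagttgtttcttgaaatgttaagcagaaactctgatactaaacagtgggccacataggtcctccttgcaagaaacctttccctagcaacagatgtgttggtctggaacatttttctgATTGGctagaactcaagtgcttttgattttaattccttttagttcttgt
RT1-Db1: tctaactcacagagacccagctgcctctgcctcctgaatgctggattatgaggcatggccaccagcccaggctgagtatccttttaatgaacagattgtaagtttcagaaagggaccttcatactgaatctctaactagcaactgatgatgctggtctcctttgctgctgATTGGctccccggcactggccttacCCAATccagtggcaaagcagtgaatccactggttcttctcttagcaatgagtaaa
The match nearest the start began 43 bases before it in RT1-Ba, 61 in RT1-Bb, 49 in RT1-Da and 55 in RT1-Db1, the last on the opposite strand. Of 33469 promoters in the table, 11385 (34.0%) held the motif on either strand, so a match alone describes the letters and marks no site.

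The deposited intensities had a 2% trimmed mean of 500.2 to 500.7 on all 55 arrays. Clustering of 44 control probe sets put the arrays in 3 technical sets, and the 6 arrays of the split all lie in set 1, so the split does not follow these sets within the 6. In the 49 others, the high class had 3 young and 3 stage-less arrays in set 2 and 3 mature arrays in set 1. The low class had 7 immature, 3 young and 3 stage-less arrays in set 2, 1 mature array in set 1, and all 26 arrays of set 3. Class and technical set are thus partly confounded in the 49, and values with the set as a block and within set 2 stand beside the pooled ones. Fits within a set asked for at least 2 arrays of each class, which set 1 (1 low array) and set 3 (no high array) do not have among the 49. The 7 other immature arrays differ from the 6 by more than the class. They lie in set 2, and their 18S signal was 13775 to 20470.5, against 12.7 to 63.5 on the 6. This signal comes from a probe set taken to cover 18S RNA, which is not among the 59 control probe sets. A low 18S signal is part of how the 6 were chosen.

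X56596_at itself read 1601 in replicate 1, 1556 in replicate 2 and 1412 in replicate 3, against 196.0, 160.4 and 180.2 in replicates 4, 5 and 6. The split is wide on every array of the series. In the 49 others the 9 high arrays read 1484 to 2381 with a median of 1795, and the 40 low arrays read 80.1 to 263.0 with a median of 141.1. No array lay between 263 and 1411.5, and a class set by the widest gap was the same for every array. Each later stage held 3 high and 11 low arrays, whereas the 7 other immature arrays, at 88.8 to 127.6, were all low.

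**Figure D1:**
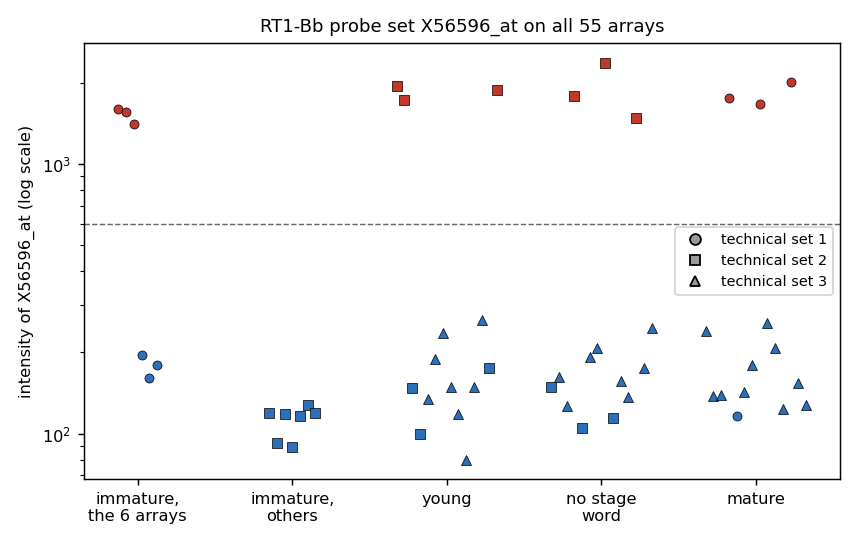
Intensity of RT1-Bb probe set X56596_at (log scale) on each of the 55 arrays by stage word; red is above and blue below the dashed line at 600, and marker shapes are the 3 technical sets. The 3 high arrays of the 6 sit at 1412 to 1601 and the 3 low ones at 160.4 to 196.0, and the later stages show the same gap with no array between 263 and 1411.5.

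The other probe sets of RT1-Bb do not follow X56596_at, so the classes are named here by the probe set and not by the level of the gene. An Affymetrix probe set is a group of short probes against a stretch of a transcript, and this platform carries 5 of them for RT1-Bb. On M36151cds_i_at the high class read 3.7, 3.1 and 4.3 and the low class 218.5, 1166.6 and 239.6, a difference of -4.41 (SE 0.58, 3 against 3 arrays) on the log2(intensity + 15.82) scale. On U65217_i_at the high class read 1.3, 5.2 and 0.9 and the low class 192.8, 415.8 and 418.8, a difference of -4.22 (SE 0.33). These probe sets are thus near 0 exactly where X56596_at is bright, which was higher by 2.98 (SE 0.21) in the high class. M36151cds_s_at read 469.7, 1192.6 and 628.6 against 848.8, 1366.3 and 749.2, and its classes overlapped (difference -0.42, SE 0.39). The fifth, M15358cds_at, read 4.7 to 21.9 on the 6 arrays and was removed as dim.

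The same opposition was seen on the 49 other arrays. M36151cds_i_at read 2.1 to 5.8 in the 9 high arrays and 7.1 to 1103 in the 40 low ones, with a low median of 606.3. U65217_i_at read 1.8 to 23.7 against 174.2 to 877.0. M36151cds_s_at overlapped there too, with medians of 1368 and 1150. RT1-Bb was not tested in any fit because its own probe set sets the class. Whether the RNA level or the sequence under the probes differs between the classes was not tested.

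**Figure D2:**
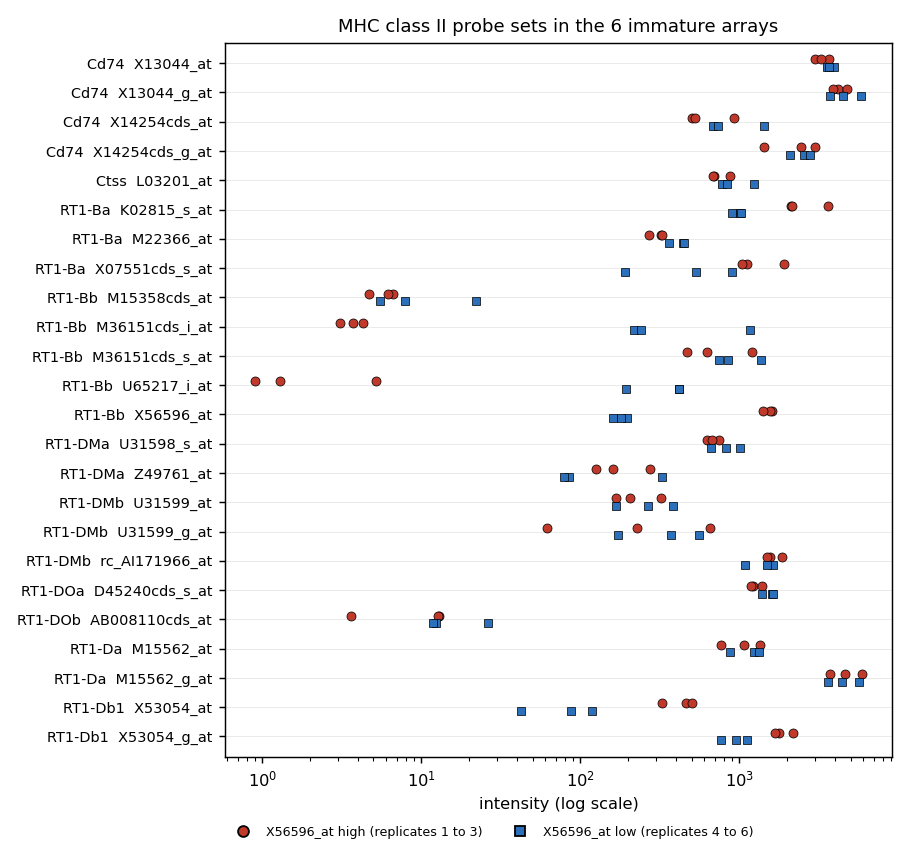
Intensities (log scale) of all 24 class II probe sets on the 6 immature arrays; red circles are the high class (replicates 1 to 3) and blue squares the low class (replicates 4 to 6). RT1-Bb goes up on X56596_at and down to 5.2 or less on M36151cds_i_at and U65217_i_at. RT1-Ba goes up on K02815_s_at and X07551cds_s_at and down on M22366_at, and RT1-Db1 goes up on X53054_at and X53054_g_at, all without overlap. Cd74, Ctss, RT1-DMa, RT1-DMb, RT1-DOa and RT1-Da overlap.

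RT1-Ba, the alpha chain that pairs with RT1-Bb, was higher in the high class on 2 of its 3 probe sets. K02815_s_at read 2116, 3595 and 2132 against 1013, 1029 and 894.9, a difference of 1.36 (SE 0.27). X07551cds_s_at read 1108, 1897 and 1038 against 190.7, 903.5 and 533.6, a difference of 1.48 (SE 0.53). In the third probe set, M22366_at, the order was turned, with 321.7, 269.6 and 326.2 against 441.7, 360.4 and 445.1 (difference -0.42, SE 0.21). The classes did not overlap on any of the 3, so the RT1-Ba probe sets disagree in direction. In whole kidney RNA, fewer cells of a type and less RNA per cell cannot be told apart.

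In the 49 other arrays K02815_s_at of RT1-Ba ran from 1805 to 3184 in the high class, with a median of 2743, and from 456.2 to 1113 in the low class, with a median of 858.8. The classes did not overlap, and the difference was 1.52 (SE 0.08, limma adjusted p = 1.8e-20). It was 1.74 (SE 0.10, limma adjusted p = 2.7e-19) with the technical set as a block, and 1.24, 1.78 and 1.53 within the young, stage-less and mature arrays. X07551cds_s_at differed by 1.28 (limma adjusted p = 0.0006), by 1.39 with the block (limma adjusted p = 0.015), and within set 2 alone at limma adjusted p = 0.0034. M22366_at differed by -0.09 (limma adjusted p = 0.59).

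RT1-Db1, the beta chain of RT1-D, went the same way on both of its probe sets. X53054_at read 461.3, 499.9 and 327.9 in the high class and 42.2, 117.8 and 87.9 in the low class, a difference of 2.24 (SE 0.35). X53054_g_at read 2170, 1780 and 1665 against 764.3, 1123 and 950.1, a difference of 0.98 (SE 0.24). Neither probe set overlapped. In the 49 other arrays X53054_at ran from 314.9 to 657.0 in the high class and from 22.5 to 194.9 in the low class, and differed by 2.02 (SE 0.23, limma adjusted p = 3.5e-09), or by 1.58 (SE 0.30, limma adjusted p = 0.00046) with the block. X53054_g_at differed there by 0.78 (limma adjusted p = 2.7e-08), and by 0.71 (limma adjusted p = 0.00029) with the block.

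The partner chain and the loading genes overlapped between the classes. RT1-Da, the alpha chain of RT1-D, read 5907, 4594 and 3709 against 5647, 4437 and 3625 on M15562_g_at, a difference of 0.05 (SE 0.27). The invariant chain Cd74 read 2971, 3676 and 3268 against 3562, 3929 and 3678 on X13044_at, a difference of -0.18 (SE 0.21). Ctss read 872.7, 688.0 and 679.5 against 776.8, 1229 and 839.9 (difference -0.32, SE 0.26). Over the 13 tested probe sets of Cd74, Ctss, RT1-DMa, RT1-DMb, RT1-DOa and RT1-Da, all 13 overlapped and no difference exceeded 0.58 in size. In the 49 others 4 of the 13, all lower in the high class, passed the test (Cd74 on X13044_at and X13044_g_at, RT1-Da on both probe sets; -0.24 to -0.52), and with the technical set as a block 0 of 13 did in limma (4 of 13 at an unadjusted p under 0.05). Within technical set 2, Cd74 was lower in the high class on all 4 of its probe sets and passed on 3. Those were X13044_g_at at -0.52 (limma adjusted p = 0.00071), X14254cds_at at -0.39 (limma adjusted p = 0.047) and X14254cds_g_at at -0.26 (limma adjusted p = 0.049). X13044_at, at -0.36 (limma adjusted p = 0.058), did not pass.

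Over all probe sets, those called apart had classes that did not overlap in the 6 arrays and differed by at least 1 on the log2 scale. This held for 120 of 6555 probe sets tested (1.83%), of which 38 were higher in the high class (0.58%) and 82 lower (1.25%). Under quantile scaling of the arrays the counts were 62 higher and 62 lower, without the excess of lower ones seen with the deposited scaling. By gene, 60 of 3835 (1.56%) were apart. Classes did not overlap, at any size, for 769 probe sets (11.7%), 203 higher and 566 lower. As background, limma called 5 probe sets over the 6 arrays (0.0763%), with 381 at an unadjusted p under 0.05. The split was the rule's own, and nothing is read from these shares. The smallest sizes inside the limit were those of Lxn at 1.02 and Bbx at -1.02, and Fgf5 lay just outside it at -0.98.

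Most of the lower probe sets were dim. The 82 lower ones had a median intensity of 95.8 over the 6 arrays, with 76.8% below 200, against a median of 222.6 for the 38 higher ones and 288.2 for all probe sets tested. Without replicate 2, 3, 5 or 6 the count of probe sets apart was 210, 252, 196 or 211, and without replicate 1 or 4 it was 180 or 175. Of these, 97 to 110 were among the 120. Whole-array profiles did not group by class. The Pearson correlation of log2 values, across probe sets, was 0.9449 to 0.9466 among the high arrays and 0.9514 to 0.9613 among the low ones, while replicates 3 and 6, of opposite classes, stood at 0.9618.

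Control signals also differed between the classes. The 5S ribosomal RNA probe set read 24.1, 31.9 and 31.8 in the high class and 40.4, 55.0 and 39.8 in the low class, with no overlap. The GAPDH 3'/5' ratio was 0.972 to 1.03 in the high class and 0.827 to 0.968 in the low class, also with no overlap. The part of these differences in the results was not tested. With 3 against 3 arrays an exact test could not go below a p of 0.10, and none was made.

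In the 49 arrays the rule did not use, probe sets were tested with limma (stage word as a covariate, Benjamini-Hochberg adjustment over 6555 probe sets, threshold 0.05). Of the 120 apart probe sets, 3 belong to RT1-Bb and were set aside, and of the others 36 (30.8%) were called there in the same direction and 1 in the opposite one, beside 18.5% of all probe sets called in either direction. With the technical set as a block, 30 (25.6%) were called the same way and 0 the opposite way, beside 2.26% of all. Within technical set 2 alone, 34 (29.1%) were called the same way and 1 the opposite way, beside 4.45%. In all 3 fits the same 26 were called.

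By direction, with the block, 17 of 37 higher ones (45.9%) were called higher and 13 of 80 lower ones (16.2%) were called lower, beside 1.25% and 1.01% of all probe sets. The difference between these shares was not tested. The 26 called in all 3 fits had a median intensity of 413.4 over the 6 arrays. The 77 that neither the pooled nor the blocked fit called had a median of 87.1, and 87.0% of them lay below 200. Classes did not overlap across 9 high and 40 low arrays for 21 of 6555 probe sets (0.32%), among them 10 apart probe sets outside RT1-Bb.

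**Figure D3:**
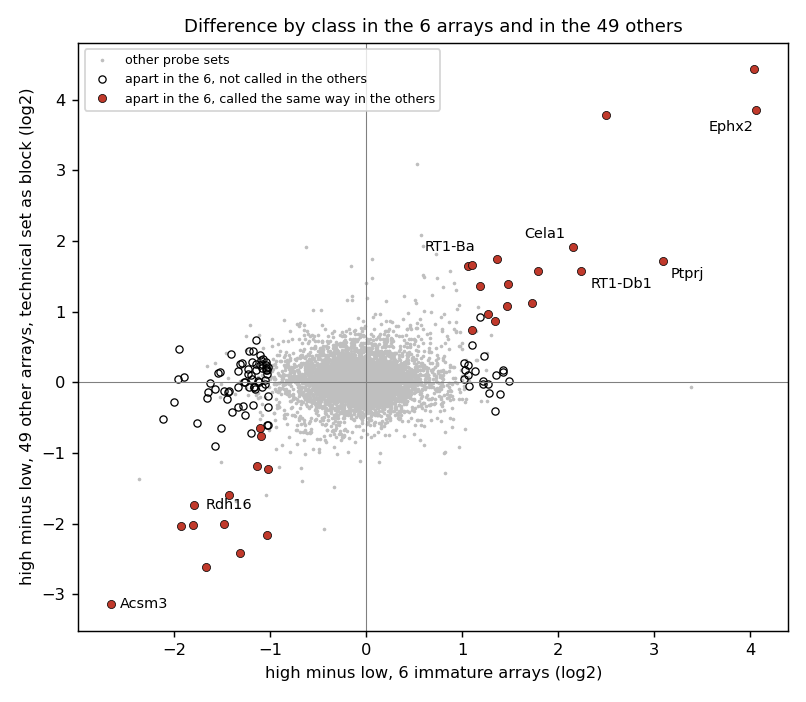
Each point is a probe set outside RT1-Bb; the x axis is high minus low in the 6 immature arrays and the y axis the same in the 49 other arrays with technical set as a block (both log2). Filled red points, apart in the 6 and called the same way in the others, run from Acsm3 at lower left (-2.66 and -3.14) to Ephx2 at upper right (4.06 and 3.86); open points are apart in the 6 but not called and lie mostly near 0 on the y axis.

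Outside RT1-Bb, the largest differences among the probe sets apart were those of Ephx2, which was picked out after its values were seen because its brightest probe set lies under the limit. It encodes soluble epoxide hydrolase, which turns the vasodilator epoxides of arachidonic acid into diols. X60328_at read 758.2, 754.7 and 637.5 in the high class and 50.8, 18.6 and 20.9 in the low class, a difference of 4.06 (SE 0.30). X60328_g_at differed by 4.04 (SE 0.27) and X65083cds_at by 2.50 (SE 0.31), and neither overlapped. The brightest of the 4 Ephx2 probe sets, rc_AI104882_s_at, read 1188, 1095 and 918.9 against 701.7, 567.8 and 472.3, a difference of 0.87 (SE 0.24). All 4 thus had the same direction, at sizes from 0.87 to 4.06.

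In the 49 other arrays X60328_at of Ephx2 ran from 357.7 to 750.0 in the high class (median 485.9) and from 12.2 to 340.3 in the low class (median 26.7). The difference was 3.34 (SE 0.27, limma adjusted p = 1.2e-13), and 3.86 (SE 0.37, limma adjusted p = 6.3e-11) with the block. Within the young, stage-less and mature arrays it was 3.12, 3.57 and 3.34. The bright probe set rc_AI104882_s_at differed by 0.96 (limma adjusted p = 7.7e-05), or by 1.57 with the block (limma adjusted p = 2.1e-07), and there the classes overlapped.

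Ptprj was the named gene with the largest rise in the high class. It encodes a receptor tyrosine phosphatase of epithelial and blood cells. Its probe set U40790_at read 558.2, 536.6 and 752.3 against 72.5, 73.4 and 34.4, a difference of 3.09 (SE 0.30). In the 49 others the high arrays ran from 540.5 to 977.9 and the low arrays from 56.2 to 387.2. The difference was 1.98 (SE 0.21, limma adjusted p = 1e-09), and 1.72 (SE 0.26, limma adjusted p = 8.8e-06) with the block. The 7 other immature arrays, all of the low class, read 289.9 to 373.5, above the 3 low arrays of the split, but technical set and 18S signal differ between them too.

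Cela1, a pancreatic-type elastase and a marker given for the split, read 911.5, 1407 and 1293 in the high class and 185.7, 276.5 and 318.2 in the low class, a difference of 2.15 (SE 0.28). Over the 49 others it ran from 1286 to 1583 in the high class and from 165.5 to 520.5 in the low class. The difference was 1.91 (SE 0.11, limma adjusted p = 5.3e-19), and 1.92 (SE 0.15, limma adjusted p = 1.3e-13) with the block. Of the other acinar genes, Cel, a bile salt lipase, was also higher without overlap, at 183.7, 129.2 and 89.2 against 77.8, 68.8 and 62.7 (difference 0.76, SE 0.28). Cel differed by 0.14 (limma adjusted p = 0.50) over the 49 others. Of the 10 tested acinar genes, 2 did not overlap and were higher (Cela1 and Cel) and 3 did so lower, beside 119 higher and 336 lower of all 3835 genes. The summed intensity of the 18 markers other than Cela1 was 3471 to 5177 in the high class and 5535 to 7618 in the low class. Most of that sum is Spink1l, a trypsin inhibitor, at 3160, 2129 and 3573 against 3844, 4230 and 5850.3. Without Spink1l, left out after its values were seen, the sum of 17 was 1342 to 1604 and 1550 to 1768, and the classes overlapped. Of the defining acinar enzymes, Amy2a3 read 8.2 to 65.7 and Cpb1 12.7 to 21.7 over the 6 arrays, and Prss1 read 48.6 to 147.3. Pnlip read 278.7, 283.6 and 325.3 in the high class against 326.8, 355.7 and 362.1 on M58369_at, lower without overlap (difference -0.23, SE 0.20).

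Among the 15 named genes higher in the high class, 9 were called the same way in the 49 others, 8 within set 2 and 7 with the block. The 7 were Ptprj, Cela1, RT1-Ba, Hba-a3, Gstt2, Mep1b and Lgals1. Mep1b, the beta subunit of the brush-border protease meprin, read 3369, 1885 and 2015 against 774.5, 893.0 and 1104, a difference of 1.34 (SE 0.29). Over the 49 others Mep1b differed by 1.12 (limma adjusted p = 2.1e-08), and by 0.87 (limma adjusted p = 0.00024) with the block. Its difference there was 0.40 in young arrays, where it did not pass, and 1.90 in mature ones.

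Gstt2, a theta-class glutathione transferase, read 4964, 4168 and 3258 against 1652, 2639 and 715.5 on rc_AI138143_at, a difference of 1.47 (SE 0.45). Its other probe set, D10026_s_at, differed by -0.03, so the gene's probe sets disagree. Gstt2 differed by 1.04 (limma adjusted p = 3e-05) in the 49 others and by 1.08 (limma adjusted p = 0.0048) with the block. Hba-a3, an alpha globin, read 413.9, 550.3 and 368.3 against 149.3, 107.0 and 96.7, a difference of 1.79 (SE 0.26), and differed by 1.57 (limma adjusted p = 0.0025) with the block. The summed erythroid markers, at 12021 to 20434 in the high class and 9983 to 18936 in the low class, overlapped. Lgals1, the sugar-binding galectin-1, read 1923, 2917 and 1551 against 590.8, 1354 and 745.7, a difference of 1.27 (SE 0.37), and differed by 0.97 (limma adjusted p = 0.009) with the block.

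Other higher genes were not called with the block. Per2, a clock gene, read 93.6, 128.6 and 134.0 against 35.6, 19.9 and 62.0, a difference of 1.35 (SE 0.32). It was called in the 49 others at 1.20 (limma adjusted p = 0.00028), but stood at 0.10 (limma adjusted p = 0.96) with the block and did not pass within set 2. Dnaja3, a mitochondrial co-chaperone, differed by 1.19 (SE 0.36) in the 6 and by 1.48 (limma adjusted p = 7.2e-06) in the 49, against 0.93 (limma adjusted p = 0.12) with the block and 1.15 (limma adjusted p = 0.01) within set 2. The remaining 6, Cnp, Nubpl, Capn9, Mt3, Plb1 and Syt8, differed by 1.27 to 1.49 in the 6 arrays and were not called in the pooled or the blocked fit. They read 20.7 to 263.6 over the 6 arrays. The other probe set of Plb1 was apart the opposite way, at -1.41.

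Among the 15 named genes lower in the high class, 6 were called the same way in the 49 others, 4 within set 2 and 3 with the block. Those 3 were Acsm3, Rdh16 and Spock2. Acsm3, a medium-chain acyl-CoA synthetase long known as the SA gene and first described for its expression in SHR kidney, read 30.6, 89.6 and 276.7 in the high class and 522.9, 644.6 and 1008 in the low class. The classes did not overlap, and the difference was -2.66 (SE 0.62). Values within the high class were themselves far apart.

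Over the 49 others Acsm3 ran from 62.1 to 525.8 in the high class, with a median of 199.9, and from 107.9 to 4427 in the low class, with a median of 2036. The classes overlapped there. The difference was -2.56 (SE 0.43, limma adjusted p = 2.1e-05), and -3.14 (SE 0.56, limma adjusted p = 0.00016) with the block. Within young, stage-less and mature arrays it was -2.40, -2.29 and -2.99, none of which passed alone. The 7 other immature arrays read 1900 to 4034, above the 3 low arrays of the split, with the same technical gap.

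Rdh16, a retinol dehydrogenase, read 168.6, 355.0 and 159.6 against 571.5, 1222 and 669.5 on U33500_g_at, a difference of -1.79 (SE 0.39). Its other probe set differed by -0.94. Over the 49 others Rdh16 ran from 139.6 to 588.1 in the high class and from 649.8 to 2077 in the low class, with no overlap. It differed by -1.83 (SE 0.14, limma adjusted p = 6.1e-15), and by -1.74 (SE 0.19, limma adjusted p = 2.6e-09) with the block. Spock2, a matrix proteoglycan, read 64.9, 28.6 and 57.5 against 119.6, 191.6 and 287.4, a difference of -1.67 (SE 0.36), and differed by -2.61 (limma adjusted p = 0.011) with the block.

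Igfbp5, a binding protein of insulin-like growth factors, read 178.0, 198.5 and 203.8 in the high class against 1050, 498.4 and 1357 in the low class, a difference of -2.12 (SE 0.36). The other probe sets of Igfbp5 differed by -0.18 and -0.11. It was called in the 49 others at -1.17 (limma adjusted p = 1.3e-05) but not with the block, at -0.52 (limma adjusted p = 0.38), nor within set 2, at -0.12. Csrp3 and Nptx1 were likewise called in the pooled fit only, and Csrp3 stood at -0.22 and Nptx1 at -0.33 with the block. Sult1b1, a sulfotransferase, read 57.0, 293.0 and 587.7 against 799.1, 1293 and 801.9 (difference -2.0, SE 0.69) and differed by -0.37 (limma adjusted p = 0.15) in the 49 others. The remaining genes, Sds, Calcr, Slc1a2, Clcn5, Rbp4, Bpifb4, Stk25 and Htt, differed by -1.29 to -1.95 in the 6 and were called in neither the pooled nor the blocked fit. Other tested probe sets differed in the 6 by 0.16 for Slc1a2, 0.22 for Clcn5, -0.15 for Sds, -0.57 for Rbp4 and 0.01 for Nptx1. Rbp4 stood at 0.71 in the pooled fit (limma adjusted p = 0.18), at -0.90 with the block (limma adjusted p = 0.39) and at -0.91 within set 2, where it passed (limma adjusted p = 0.023).

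**Figure D4:**
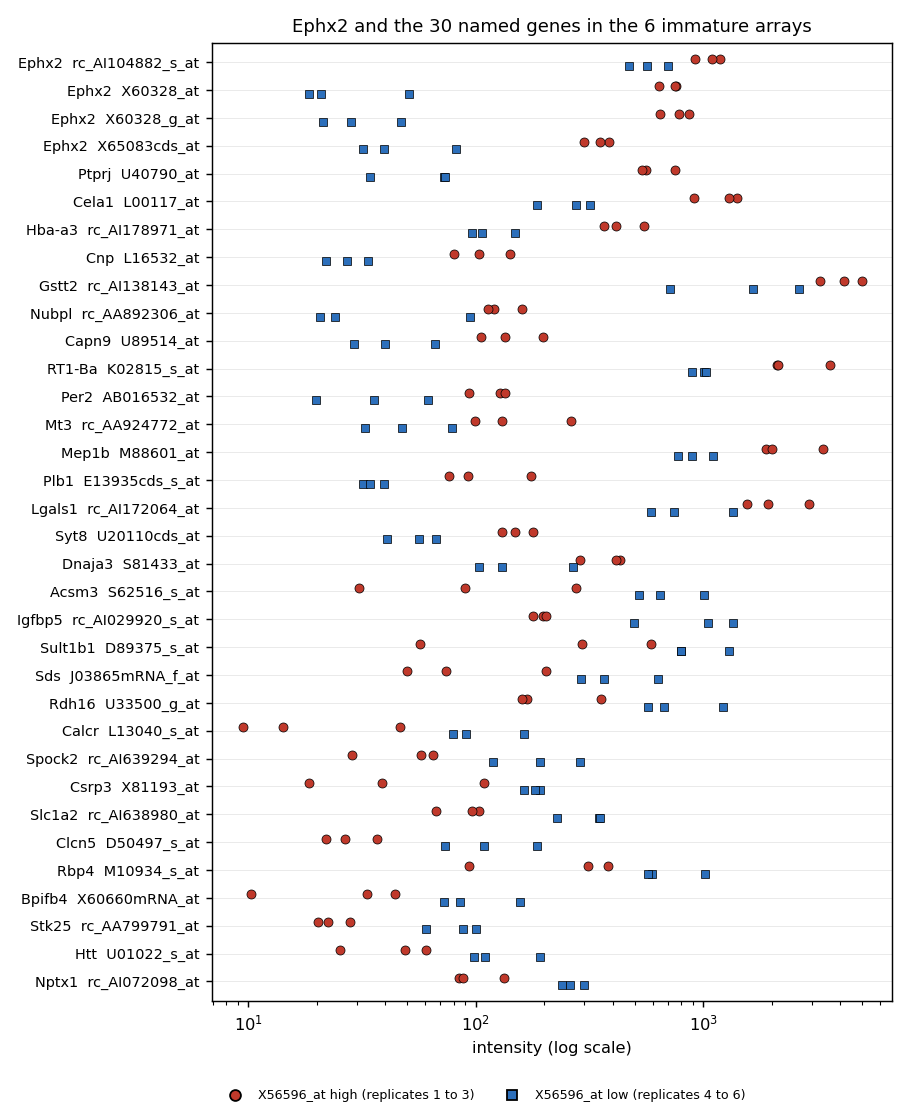
Intensities (log scale) on the 6 immature arrays for the 4 Ephx2 probe sets and the 30 named genes; red circles are the high class (replicates 1 to 3) and blue squares the low class (replicates 4 to 6). The named genes were chosen for not overlapping, so the gap between colours is no finding; Ephx2, Ptprj and Cela1 show the widest gaps among the higher genes and Acsm3 and Sult1b1 are spread widely within the high class.

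Several further genes were called in all 3 fits of the 49 arrays and were picked out after their values were seen. Il33, an alarm cytokine of barrier and stromal cells, read 909.8, 966.7 and 979.5 against 388.8, 498.0 and 361.8 in the 6 arrays, a difference of 1.18 (SE 0.22). Outside the 6 arrays Il33 ran from 1133 to 1749 in the high class and from 115.9 to 978.3 in the low class, with no overlap, and differed by 1.36 (limma adjusted p = 0.0015) with the block. Itga1, a collagen receptor subunit, read 772.4, 374.1 and 1141 against 1431, 1206 and 1688, a difference of -1.03 (SE 0.40), and differed by -2.16 (limma adjusted p = 6e-08) with the block. Clu, a secreted chaperone that rises in injured tubules, read 1032, 703.9 and 743.5 against 1933, 1963 and 1450, a difference of -1.10 (SE 0.25), and differed by -0.65 (limma adjusted p = 0.0043) with the block. Creg1 differed by -1.09 in the 6 and by -0.76 (limma adjusted p = 0.0041) with the block, and Bbx by -1.02 and -1.23 (limma adjusted p = 0.00013).

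Read from the 49 arrays back to the 6, the blocked fit called 64 probe sets outside RT1-Bb at a size of at least 1. Of these, 25 (39.1%) were apart in the 6 arrays, beside 1.83% of all probe sets tested, and 58 (90.6%) had the same sign. The pooled fit called 115 at that size, of which 27 (23.5%) were apart and 82 (71.3%) had the same sign. The share of the same sign over all probe sets was not taken, so nothing is read from the counts of sign. Over all 6551 probe sets outside RT1-Bb, the differences in the 6 and in the blocked fit had a Pearson correlation of 0.206. By gene the blocked fit called 74 of 3835 (1.93%), 41 higher and 33 lower. Lpl, lipoprotein lipase, depended on the technical set, and its 2 probe sets apart in the 6 differed by 1.06 and 1.10. The first, L03294_at, differed by 0.60 (limma adjusted p = 0.096) in the pooled fit and by 1.65 (limma adjusted p = 4e-05) with the block.

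Whether the split differed between the 6 immature arrays and the 49 others was tested by the contrast of the 2 differences over all 55 arrays. In limma 0 of 6555 probe sets passed (529 at an unadjusted p under 0.05), and 0 with the block (532). For Ephx2 X60328_at the difference of differences was 0.72 (SE 0.64, limma adjusted p = 0.90), for Ptprj 1.11 (SE 0.50, limma adjusted p = 0.54), for RT1-Ba K02815_s_at -0.16 (SE 0.20, limma adjusted p = 0.94) and for Acsm3 -0.10 (SE 1.01, limma adjusted p = 0.99). After removal of 2 arrays outside the 6 whose GAPDH 3'/5' ratio exceeded 3, 17 probe sets passed. Those apart in the 6 arrays were Agt at -1.30, Slc1a2 at -1.41, Marcks at -1.24 and Dyrk1a at -2.05. They were picked for a gap in the same 6 arrays that enter the contrast, so their passing is no independent support. Dyrk1a differed by -1.10 in the 6, by 0.98 (limma adjusted p = 0.00011) in the pooled fit of the 49 and by 0.38 with the block.

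The 23 gene lists had 11 members apart in all, each gene read by its brightest probe set, and 14 lists had none. List medians lay between -0.28 and 0.18, beside -0.07 for all 3835 genes, of which 21 were apart higher and 39 lower. In the class II list 1 of 9 tested genes was apart (RT1-Ba), with a list median of -0.11, and in the list of class I and its peptide supply 0 of 13. For genes counted as not apart, other probe sets were apart in RT1-Db1 (X53054_at, 2.24), Tap1 (X57523_g_at, 1.06) and RT1-Bb (2.98, -4.41 and -4.22). L23128_g_at has no single gene name, shares its number with the RT1-N3 probe set L23128_at, and was apart at 1.10. With the block outside the 6 arrays, L23128_g_at differed by 0.74 (limma adjusted p = 0.029) and X57523_g_at by 0.24 (limma adjusted p = 0.92). The class I gene RT1-A3 read 71.5, 29.3 and 131.5 against 78.9, 352.2 and 258.9, which overlapped (difference -1.35, SE 0.59). Outside the 6 arrays RT1-A3 differed by -1.23 (limma adjusted p = 3.5e-07), and by -1.68 (limma adjusted p = 6.9e-08) with the block.

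Lists of kidney cell types had few members apart. Of 28 proximal tubule genes, 5 did not overlap and were higher, none did so lower, and 1 (Mep1b) was apart, beside 119 higher and 336 lower non-overlapping genes of 3835. Dpep1, a brush-border dipeptidase, differed by 0.97 (SE 0.31) in the 6, and Slc17a1, a sodium phosphate transporter, by 0.82 (SE 0.27). Slc22a2, an organic cation transporter, differed by -0.73 (SE 0.55) and overlapped. The pooled fit of the 49 called 6 proximal tubule genes higher and 5 lower, and the blocked fit 3 higher (Mep1b, Slc17a1 and Slc15a2). Outside the 6 arrays Slc17a1 differed by 0.67 (limma adjusted p = 3.8e-05), and by 0.56 (limma adjusted p = 0.044) with the block, while Dpep1 passed in the pooled fit (0.91, limma adjusted p = 0.00048) and not with the block (0.51, limma adjusted p = 0.47). None of the 23 genes of the loop, distal nephron and collecting duct, of 9 podocyte and endothelial genes or of 18 smooth muscle, mesangial and fibroblast genes was apart. Without overlap, 3 of the 23 loop, distal nephron and collecting duct genes were lower (Avpr2, S100g and Slc4a1; -0.32 to -0.86) and 0 higher, and 2 of the 9 podocyte and endothelial genes were lower (Actn4 at -0.74, Pecam1 at -0.45) and 0 higher. The summed podocyte and endothelial markers were 1702 to 2411 in the high class and 2610 to 2699 in the low class, with no overlap, and their part in the other results was not tested.

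The arrays carried the marks of kidney in both classes. The water channel Aqp2 read 1971 to 3557 on D13906_at, the sodium chloride cotransporter Slc12a3 1009 to 2757 on U10097_at, and the loop cotransporter Slc12a1 388.3 to 595.1. None of 12 tested leukocyte genes was apart, and their list median was 0.06. Without overlap, 2 were lower (Ptprc and Cd14) and 0 higher, beside 336 lower and 119 higher of all 3835 genes. The summed leukocyte markers read 3423 to 3747 in the high class and 2999 to 5221 in the low class and overlapped. The pan-leukocyte gene Ptprc read 112.3, 144.4 and 114.3 against 229.6, 202.4 and 198.3 on M25823_s_at, lower in the high class by a difference of -0.70 (SE 0.21), and in the 49 others by -0.00 (limma adjusted p = 1.0). Cd14, a monocyte receptor, read 279.4, 352.3 and 306.6 against 443.4, 442.2 and 499.4, a difference of -0.54 (SE 0.21). In the 49 others the pooled fit called 3 leukocyte genes lower and 0 higher, beside 371 lower and 308 higher of all genes. The blocked fit called 1 lower and 0 higher, beside 33 and 41. Lyz2, a lysozyme gene, overlapped in the 6 (difference -0.24, SE 0.37). Over the 49 others Lyz2 differed by -0.83 (limma adjusted p = 0.00021), and by -0.78 (limma adjusted p = 0.023) with the block. The part of leukocyte content in the class II values was not tested. None of 8 interferon response genes was apart (list median 0.06).

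In the enzyme and hormone lists few genes were apart, beside 60 of all 3835 genes (1.56%), and nothing is read from these counts. Agt, angiotensinogen, the 1 renin-angiotensin-kallikrein gene of 11 apart, read 129.1, 229.1 and 170.8 against 295.9, 526.5 and 442.6, a difference of -1.18 (SE 0.30). Outside the 6 arrays Agt differed by 0.01 (limma adjusted p = 0.97). Gstt2 and Sult1b1 were apart, in opposite directions, among 26 glutathione and conjugation enzymes. Clu and Cd44 were apart and lower among 19 injury and repair genes, Cd44 at -1.16 in the 6 and -0.20 (limma adjusted p = 0.42) in the 49 others. Of 15 genes with earlier reports from SHR kidney or SHR crosses, 1 (Acsm3) was apart by its brightest probe set. Ephx2 is also in this list and in that of P450 and eicosanoid enzymes. It counts as not apart because its brightest probe set differed by 0.87, while X60328_at, X60328_g_at and X65083cds_at were apart at 4.06, 4.04 and 2.50.

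None of the lists for P450 and eicosanoid enzymes (24 genes by their brightest probe sets), immediate early and heat shock genes (16), cell cycle (16), extracellular matrix (24), fatty acid oxidation (29), oxidative phosphorylation (33) or cytosolic ribosomal proteins (36) had a member apart, nor did the 5 erythroid genes. Dcn, a matrix proteoglycan, was apart at -1.43 on rc_AI639233_s_at, which is not its brightest probe set. In the 49 others it differed by -0.36 (limma adjusted p = 0.42) in the pooled fit. With the block the difference was -1.60 (limma adjusted p = 9.2e-05), and within set 2 it was -1.28 (limma adjusted p = 0.016). Per2 was the 1 of 9 clock genes apart, Lpl the 1 of 17 fat, liver, adrenal and muscle genes, and Cela1 the 1 of 10 acinar genes. With the technical set as a block, Jund of the immediate early list differed by 3.09 (limma adjusted p = 7.9e-08) in the 49 others, while in the 6 arrays it differed by 0.53 (SE 0.31) and its classes overlapped.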

How the data were processed

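Kidney RNA was measured on 1-colour Affymetrix arrays, and the values used were the intensities of 8799 probe sets per array that the authors deposited, on a linear scale. How probes were summarised and arrays scaled is not given in the sources used here. Values were put on the log2 scale after adding 15.82, a share of 0.1 of the overall median, which understates differences where signal is dim. Left out were 59 control probe sets and those under the 25th percentile of mean log2 value, which kept 6555. Symbols came from the platform annotation, updated through RefSeq GRCr8: 7018 probe sets had 1 symbol, 308 several and 1473 none, and the last 2 kinds were not named. No pair of arrays held identical values.

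Fits used limma 3.58.1 in R 4.3.3 (lmFit, eBayes, 2-sided, Benjamini-Hochberg) and were tested on simulated data. Technical sets came from Ward clustering of 44 control probe sets, with the number of sets fixed at 3, and the block was an additive term. Figures used matplotlib 3.10.9. Named genes were, among genes apart in the 6 arrays by their brightest probe set, the 15 with the largest difference each way, all probe sets of RT1-Bb, RT1-Ba and Cela1, the class II list, and up to 4 members of each other list with the largest differences. The arrays, the markers and the gene lists were chosen with earlier results of these data known, so RT1-Ba and Cela1 are no independent support for the split. Alternatives covered scaling, offset, filter, size limit, arrays, stage, technical set, class rule and variance model. Signal over background was not analysed here, and the number of arrays limits precision.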

Additional observations from a re-analysis of the deposited data

Results flagged for a closer look

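Among the 51 named probe sets, the 7 other immature arrays held 3 values that stood far from the rest of their group by Dixon's ratio on the log2 scale, a rule that chance meets in about 1 of 20 groups. Gstt2 on rc_AI138143_at read 1521.7 in immature replicate 13, the lowest of the 7, where the others reached up to 2168.6. Dnaja3 on S81433_at read 57.6 in immature replicate 8, the lowest of the 40 low arrays outside the 6. Ctss read 1225.4 on L03201_at in immature replicate 10. None of these arrays is among the 6 of the split.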

How the results depend on the processing

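With an offset of 0.5 of the median, 34 probe sets were apart (15 higher, 19 lower), and with dim probe sets removed up to the median 40 (14 and 26). A limit of 0.5 on the log2 scale gave 414 (132 and 282) and one of 1.5 gave 30 (9 and 21). Quantile scaling gave 62 higher ones, and limma in the 6 arrays called 5 (4 and 1). Leaving out each array gave 175 to 252, with 60 to 85 higher and 114 to 180 lower. Of the apart probe sets outside RT1-Bb, 36 were called the same way in the 49 arrays, but 21 under the median filter, 17 in young, 20 in stage-less and 13 in mature arrays alone. All calls fell from 1212 to 148 with the technical set as a block, to 292 in set 2, and to 89, 134 and 116 in young, stage-less and mature arrays. The contrast between the 6 and the 49 gave 1 call under quantile scaling, 4 with the larger offset, 3 with the median filter and 17 without the arrays of a GAPDH ratio above 3. The cause of these shifts was not tested, beyond the smaller number of arrays or probe sets in some. Where the pooled or the alternative fit called a named gene, 4 values changed sign (changes of sign between values not called in either are not counted): Csrp3 to 0.04 in young arrays and 0.01 in set 2, Rbp4 to -0.91 in set 2 and Nptx1 to 0.01 in young arrays. No paired analysis was possible because no replicate number is shared between groups.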
